A study of Mus musculus with 8 samples.

Results

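The mechanistic target of rapamycin complex 1 (mTORC1) is a protein kinase complex that couples growth factors, energy and amino acids to protein synthesis. With earlier results of these data known, 10 of the 55471 genes in the count tables were examined. They were chosen by name as the core of the complex and its best-known brakes. They encode the kinase (Mtor), its scaffold Raptor (Rptor), the inhibitory subunits PRAS40 (Akt1s1) and DEPTOR (Deptor), the stress-induced inhibitors REDD1 (Ddit4) and sestrin 1 to 3 (Sesn1, Sesn2, Sesn3), and the translation repressors 4E-BP1 (Eif4ebp1) and 4E-BP2 (Eif4ebp2), which mTORC1 phosphorylates.

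As background, active mTORC1 promotes cap-dependent translation by phosphorylating 4E-BPs, which then release the cap-binding protein eIF4E. REDD1 acts through the TSC complex, which switches off the GTPase Rheb, the direct activator of mTORC1. Sestrins bind the GATOR2 complex and so restrain the Rag GTPases, which bring mTORC1 to the lysosome when amino acids are plentiful. Several of these brakes are known as targets of the transcription factor ATF4, and in the heart mTORC1 is known as a regulator of cardiomyocyte growth.

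RNA was sequenced from heart tissue of each of 4 wild-type (WT) and 4 TAZG197V male mice, which were 14 weeks old and untreated. TAZG197V mice were made by CRISPR/Cas9 editing in C57BL/6N zygotes, bred with C57BL6/J mice and used as hemizygous males. They carry a patient-derived glycine-to-valine change in Tafazzin, an X-linked mitochondrial acyltransferase that remodels cardiolipin, in all cells of the body. The libraries held 23055689 to 36301031 counts. As a check of the labels, the edited gene Taz (mm10 chromosome X, 74281912 to 74290151) had 58.7 to 63.8 CPM in WT (counts scaled by library size) and 44.3 to 50.4 CPM in TAZG197V, a log2 fold change of -0.37 (edgeR adjusted p = 0.00124).

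Some libraries stood apart. Summed brain markers (8 genes, none at 0 in all libraries) reached 208.7 CPM in WT 4 and 366.4 CPM in TAZG197V 4, against 44.0 to 86.7 CPM in the other 6. Red cell markers (6 genes) summed to 55070 CPM in WT 4 and to 227.3 to 1065 CPM elsewhere. Adipocyte markers (6 genes) summed to 43.1 CPM in WT 2 and to 0.387 to 6.43 CPM elsewhere. Results are therefore also given without both number 4 libraries, and the 4 calls below also held without WT 2. The tissue label held, since summed markers of cardiomyocytes (7 genes) took 55890 to 62790 CPM in WT and 46470 to 50750 CPM in TAZG197V, with 4 of the 7 called lower and 0 called higher. Fibroblast markers (6 genes) summed to 1139 to 1848 CPM in WT and 789.9 to 1148 CPM in TAZG197V, with 3 called lower, and macrophage markers (6 genes) to 248.1 to 354.7 and 255.4 to 378.9 CPM, with 0 called. Endothelial markers (6 genes) summed to 736.2 to 1019 CPM in WT and 605.1 to 754.4 CPM in TAZG197V, with 2 called lower. Of 6 skeletal muscle markers, Acta1 was called higher (92.4 to 329.5 CPM in WT, 412 to 1103 CPM in TAZG197V) and Ckm was not called, and both are also expressed in heart. The defining markers Myh4, Myh1, Mylpf and Tnnt3 were at most at 1.03 CPM in any library. In RNA from tissue, fewer cells of a type and less RNA per cell cannot be told apart. Whether these shifts take part in the results on mTORC1 genes was not tested.

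All 10 genes passed the filter on low counts and were tested for a difference between the genotypes. A gene was called when its adjusted p was under 0.05, the genotypes differed by more than 15% of the lower level and its mean scaled count reached 50. Sesn2, Deptor, Eif4ebp1 and Akt1s1 were called higher in TAZG197V, 0 were called lower, and the other 6 were not called. Of all 15084 genes tested, 33.5% were called (18.5% as higher, 15.1% as lower) and 38.2% had an adjusted p under 0.05. Only 12357 of the 15084 reached the mean scaled count of 50. Among genes that could be called, the share called is therefore higher than 33.5%. A count of 4 in 10 is thus not far from the background, and what follows rests on the single genes. In the same 4 genes all TAZG197V values were above all WT values, as in 19.3% of all genes, and 33.2% of all genes had no overlap in either direction. The median log2 fold change was 0.26 over the 10 genes and -0.01 over all genes tested. The plot of CPM by library shows the pattern.

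**Figure D1:**
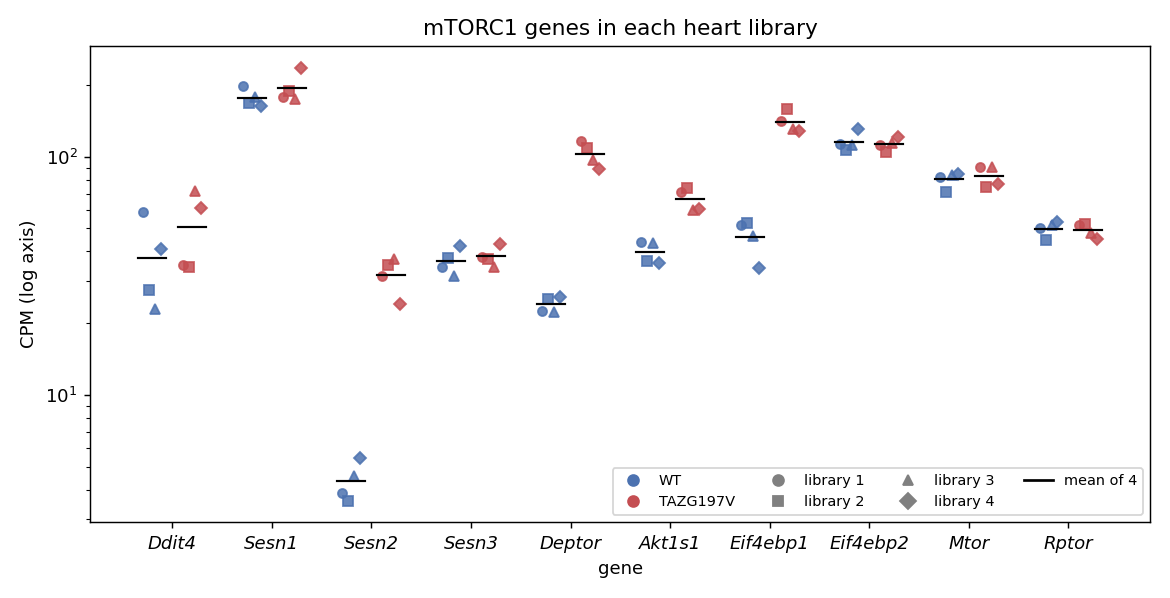
CPM (log axis) of the 10 mTORC1 genes in each library, WT in blue and TAZG197V in red, with the symbol giving the library number and the line the mean of 4. For Sesn2, Deptor, Akt1s1 and Eif4ebp1 all 4 TAZG197V libraries lie above all 4 WT libraries, and for the other 6 genes the genotypes overlap.

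The stress-induced inhibitors come first. Sesn2 (ENSMUSG00000028893, chromosome 4, 132492032 to 132510501, minus strand) encodes sestrin 2, a leucine sensor that binds GATOR2. Its counts were 114, 131, 117 and 122 in WT 1 to 4 and 865, 1305, 1153 and 656 in TAZG197V 1 to 4. This was 3.86, 3.60, 4.54 and 5.45 CPM in WT and 31.4, 35.2, 37.2 and 24.1 CPM in TAZG197V. Even the lowest TAZG197V library, number 4, lay above the highest WT library, which was also number 4. The fitted rise was 6.98-fold (95% interval 5.79 to 8.40), a log2 fold change of 2.80 (standard error 0.117, edgeR adjusted p = 2.33e-06). In the ranking of all 15084 genes by fitted rise, Sesn2 stood at 90. Without both number 4 libraries the log2 fold change was 3.13.

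The paralogues of Sesn2 did not show this rise. Sesn1 (ENSMUSG00000038332, chromosome 10, 41809935 to 41908424, plus strand), a p53-responsive sestrin, was measured at 198.9, 167.4, 178.6 and 162.6 CPM in WT and at 178.4, 187.8, 174.4 and 236.6 CPM in TAZG197V. The genotypes overlapped, with TAZG197V 4 highest of all. Its log2 fold change was 0.13 with a 95% interval of -0.10 to 0.36 (edgeR adjusted p = 0.341), and -0.01 without both number 4 libraries.

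Sesn3 (ENSMUSG00000032009, chromosome 9, 14275067 to 14333101, plus strand), known as a FOXO-responsive sestrin, ran from 31.4 to 42.3 CPM in WT and from 34.6 to 43.0 CPM in TAZG197V. The ranges covered nearly the same values. The log2 fold change was 0.08, with an interval of -0.08 to 0.24 (edgeR adjusted p = 0.417). The intervals of Sesn1 and Sesn3 lie wholly below that of Sesn2, which ran from 2.53 to 3.07.

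Ddit4 (ENSMUSG00000020108, chromosome 10, 59949669 to 59951834, minus strand) was the most variable of the 10 genes. It had 58.6, 27.5, 22.9 and 41.1 CPM in WT and 35.2, 34.4, 71.8 and 61.0 CPM in TAZG197V. WT 1 lay among the high values and TAZG197V 1 and 2 among the low ones, so the genotypes overlapped widely. The fit gave a log2 fold change of 0.39, with a 95% interval of -0.40 to 1.19 and a standard error of 0.345 (edgeR adjusted p = 0.394). These data thus leave a change of Ddit4 in either direction undetermined. Within sequencing lane 7, which held libraries 1 and 2 of each genotype, the mean log2 CPM was lower in TAZG197V by -0.21, and within lane 8, which held libraries 3 and 4, it was higher by 1.11. With single libraries left out the log2 fold change ran from 0.08 without TAZG197V 3 to 0.78 without WT 1, and the edgeR adjusted p was at least 0.104. The less studied paralogue REDD2 (Ddit4l), with 1.90 to 2.77 CPM in WT and 1.24 to 1.38 CPM in TAZG197V, was called lower (log2 fold change -0.86, edgeR adjusted p = 0.00639) at a mean scaled count of 54.9, close to the minimum of 50.

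Sequence upstream of Sesn2, Sesn3 and Ddit4 is shown because these genes are known stress-induced brakes, of which Sesn2 alone was called. The RefSeq promoter table (GRCm38.p6, 250 bases before to 50 after the gene start) held 9 windows for 8 of the 10 genes. It was searched on both strands for TGATGNAA, the core of the C/EBP-ATF response element that ATF4 dimers can bind, for the cAMP response element TGACGTCA, the E-box CACGTG, the FOXO site GTAAACA and the CCAAT box CCAAT. The first 3 had no match in the 9 windows, and they occurred in 3.97%, 1.79% and 7.15% of all 32851 promoter windows. The FOXO letters occurred in 3.65% of all windows and once among the 9, on the minus strand 22 bases after a start of Sesn1. CCAAT was in 37.4% of all windows and in those of Sesn1, Sesn2, Sesn3, Ddit4 and Mtor. No match says only that the letters are not in these windows. In the sequences below, written 5′ to 3′ on the gene's strand and ending before the first annotated exon base, capitals mark CCAAT or its reverse complement. The Sesn3 window lies inside the gene, in an intron of its longer transcripts.
Sesn2, chr4:132510502-132510706, minus strand: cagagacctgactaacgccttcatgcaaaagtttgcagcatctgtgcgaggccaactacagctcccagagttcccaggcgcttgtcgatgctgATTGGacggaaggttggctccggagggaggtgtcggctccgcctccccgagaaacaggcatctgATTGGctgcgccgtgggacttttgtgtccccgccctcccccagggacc
Sesn3, chr9:14276051-14276300, plus strand: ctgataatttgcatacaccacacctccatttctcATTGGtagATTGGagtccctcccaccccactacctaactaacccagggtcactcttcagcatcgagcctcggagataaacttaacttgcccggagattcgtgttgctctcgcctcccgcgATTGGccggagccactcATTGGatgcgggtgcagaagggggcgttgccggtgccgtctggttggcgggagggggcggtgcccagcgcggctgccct
Ddit4, chr10:59951835-59952020, minus strand: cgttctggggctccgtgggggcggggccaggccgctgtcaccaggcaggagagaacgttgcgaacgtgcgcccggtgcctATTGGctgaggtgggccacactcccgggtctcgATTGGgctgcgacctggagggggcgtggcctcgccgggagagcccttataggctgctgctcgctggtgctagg

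The inhibitory subunits of the complex both rose. Deptor (ENSMUSG00000022419, chromosome 15, 55112317 to 55259271, plus strand) encodes a subunit that binds the kinase and inhibits both mTORC1 and mTORC2. It had 22.6, 25.3, 22.3 and 25.7 CPM in WT and 115.9, 108.5, 96.9 and 89.2 CPM in TAZG197V. The lowest TAZG197V library, number 4, lay well above the highest WT library. The rise was 4.28-fold (95% interval 3.64 to 5.02), a log2 fold change of 2.10 (standard error 0.101, edgeR adjusted p = 4.76e-06). An antisense gene shares part of its exons (3.41% of its exon bases), and without knowledge of the strand setting reads there cannot be assigned.

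Akt1s1 (ENSMUSG00000011096, chromosome 7, 44848991 to 44855421, plus strand) encodes PRAS40, which blocks substrate access to Raptor until AKT phosphorylates it. It had 43.7, 36.6, 43.4 and 35.7 CPM in WT and 71.2, 73.8, 59.5 and 60.1 CPM in TAZG197V. The genotypes did not overlap. The rise was 1.65-fold (95% interval 1.43 to 1.90), a log2 fold change of 0.72 (standard error 0.0898, edgeR adjusted p = 0.000541). Other annotated genes, Tbc1d17 and a microRNA, share 5.27% of its exon bases.

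The catalytic core did not pass the test. Mtor (ENSMUSG00000028991, chromosome 4, 148448611 to 148557683, plus strand) had 82.4, 71.4, 84.2 and 84.96 CPM in WT and 90.7, 74.5, 90.2 and 77.1 CPM in TAZG197V. The fitted log2 fold change was 0.02, with a 95% interval of -0.16 to 0.19 (edgeR adjusted p = 0.891). Rptor (ENSMUSG00000025583, chromosome 11, 119602905 to 119899576, plus strand) had 50.3, 44.8, 51.6 and 52.99 CPM in WT and 51.7, 52.3, 48.1 and 45.03 CPM in TAZG197V. For Rptor the fit gave -0.05 on the log2 scale, with an interval of -0.18 to 0.09 (edgeR adjusted p = 0.553). As fold changes the intervals were 0.895 to 1.14 for Mtor and 0.884 to 1.06 for Rptor, which leaves room only for changes smaller than the minimum for a call.

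Of the translation repressors, Eif4ebp1 (ENSMUSG00000031490, chromosome 8, 27260329 to 27276674, plus strand) rose and Eif4ebp2 did not. Eif4ebp1 had 51.7, 52.6, 46.4 and 34.2 CPM in WT and 140.6, 159.1, 130.7 and 128.3 CPM in TAZG197V. WT 4 was the lowest library, and the genotypes were far apart with or without it. The rise was 3.15-fold (95% interval 2.73 to 3.63), a log2 fold change of 1.66 (standard error 0.0894, edgeR adjusted p = 9.43e-06). Without WT 4 it was 1.49, the lowest value with 1 library left out.

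Eif4ebp2 (ENSMUSG00000020091, chromosome 10, 61428491 to 61452661, minus strand) had 112.7, 106.4, 111.5 and 130.2 CPM in WT and 112.3, 104.2, 114.3 and 120.4 CPM in TAZG197V. The ranges lay on each other. The log2 fold change was -0.05, with a 95% interval of -0.17 to 0.08 (edgeR adjusted p = 0.508). Eif4ebp3 was read at 1 to 7 counts per library and was not tested, and 65.5% of its 50-base windows occur in transcripts of another gene.

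**Figure D2:**
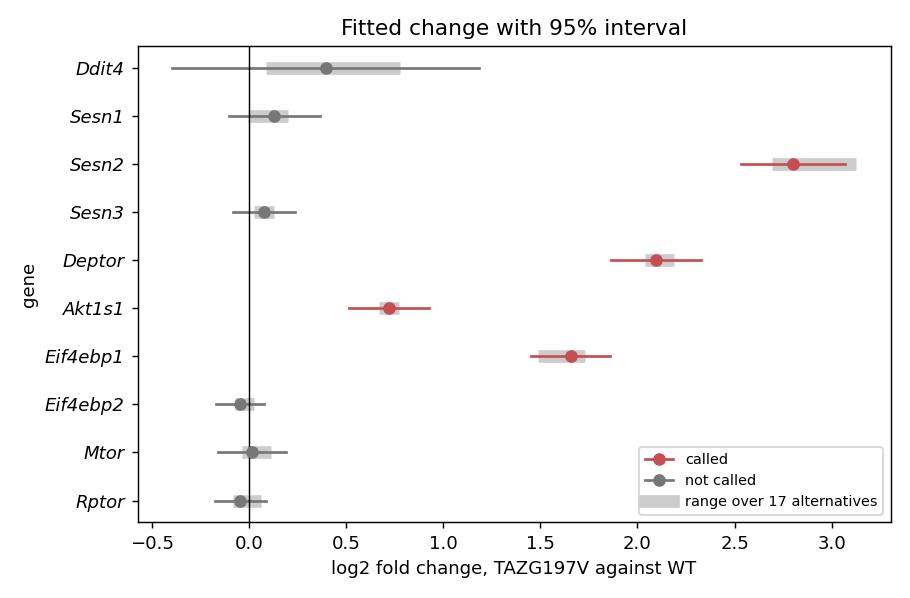
Log2 fold change of TAZG197V against WT for the 10 genes, with the 95% interval of the fit as a line and the range over 17 alternative fits as a grey band. The 4 called genes lie between 0.72 and 2.80, and the intervals of the other 6 include 0.

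The calls were the same under other settings. Sesn2, Deptor, Eif4ebp1 and Akt1s1 were called higher, and the other 6 genes were not called, in each of 17 alternative fits with other covariates, scalings, tools or libraries. Across these fits the log2 fold change ran from 2.69 to 3.13 for Sesn2, from 2.04 to 2.19 for Deptor, from 1.49 to 1.73 for Eif4ebp1 and from 0.67 to 0.77 for Akt1s1. Within lanes 7 and 8 the difference in mean log2 CPM was 3.14 and 2.57 for Sesn2, 2.23 and 1.95 for Deptor, 1.52 and 1.70 for Eif4ebp1, and 0.86 and 0.60 for Akt1s1. Without both number 4 libraries the log2 fold change was 2.19 for Deptor, 1.51 for Eif4ebp1 and 0.73 for Akt1s1, and these genes and Sesn2 were still called without the libraries high in brain markers.

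To compare levels between genes, CPM was divided by the exon length in kilobases. On this per-length scale the order of the WT means was Sesn1 (44.4 ± 4.05), Ddit4 (21.4 ± 9.15), Eif4ebp1 (21.1 ± 3.85), Eif4ebp2 (19.9 ± 1.79), Akt1s1 (13.0 ± 1.40), Mtor (7.99 ± 0.626), Rptor (3.71 ± 0.265), Deptor (2.702 ± 0.203), Sesn3 (2.38 ± 0.306) and Sesn2 (1.26 ± 0.238; SD, n = 4). The WT ranges of Ddit4, Eif4ebp1 and Eif4ebp2 overlapped between neighbours, as did those of Deptor and Sesn3. In TAZG197V Eif4ebp1 had the highest per-length level (63.6 ± 6.38), ahead of Sesn1 (48.8 ± 7.22), although TAZG197V 4 was highest in Sesn1 at 59.4 and lowest in Eif4ebp1 at 58.4. Deptor (11.6 ± 1.34) and Sesn2 (9.20 ± 1.67), the lowest of the inhibitors along with Sesn3 in WT, stood above Mtor (8.22 ± 0.844) by their means there.

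The make-up of both families differed accordingly. Sesn2 took 2.08% to 3.47% of the summed per-length sestrin level in WT and 10.0% to 18.9% in TAZG197V. Sesn1 remained the main sestrin transcript, at 92.4% ± 1.43 among WT libraries and 80.4% ± 3.82 among TAZG197V libraries (SD, n = 4). Eif4ebp1 took 40.9% to 56.4% of the 4E-BP level in WT and 73.4% to 79.9% in TAZG197V. Eif4ebp2 took 48.7% ± 7.06 in WT and 23.5% ± 2.72 in TAZG197V, while its own level was not called. Without division by exon length Eif4ebp1 took 28.7% in WT and 55.2% in TAZG197V, so that Eif4ebp2 was the larger in WT, and Sesn3 took 16.8% of the sestrins in WT in place of 5.00%. The summed 4E-BP level was 41.1 ± 2.25 in WT and 83.4 ± 5.26 in TAZG197V, in CPM per kilobase. The summed sestrin level was 48.1 ± 3.75 in WT and 60.5 ± 5.97 in TAZG197V on that scale, and neither sum overlapped between the genotypes. No test was run on shares or sums.

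**Figure D3:**
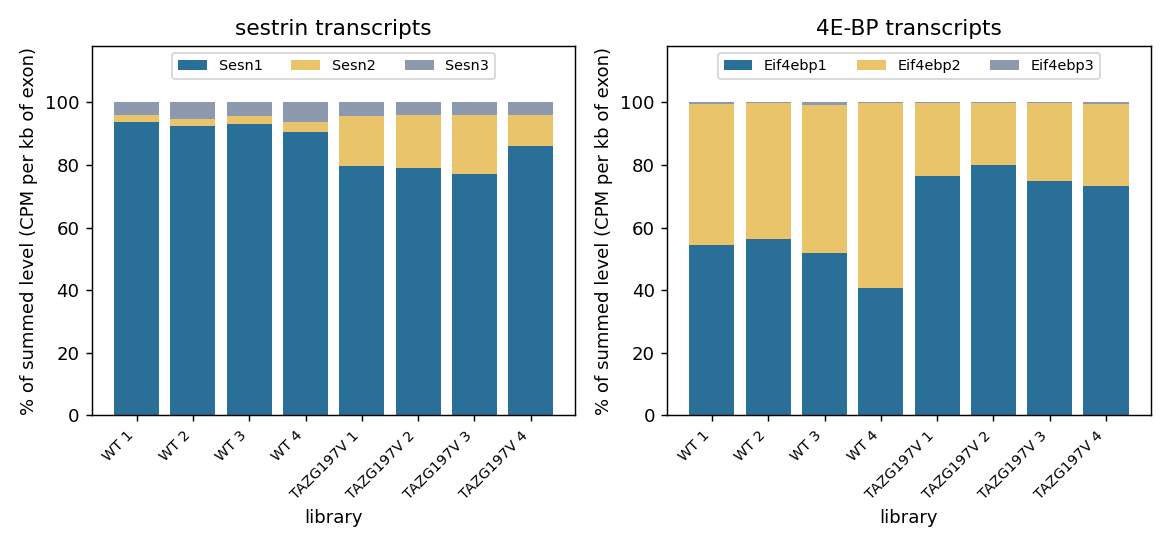
Share of each paralogue in the summed level (CPM per kilobase of exon) of the sestrins and the 4E-BPs, as stacked bars for each of the 8 libraries. The highest WT share of Sesn2 is 3.47% and its lowest TAZG197V share 10.0%, and for Eif4ebp1 these are 56.4% and 73.4%.

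The target of the 4E-BPs moved the other way. Eif4e, which encodes the cap-binding protein, had 82.6, 71.7, 76.5 and 66.3 CPM in WT and 46.3, 49.0, 48.8 and 50.2 CPM in TAZG197V. The genotypes did not overlap, and TAZG197V was lower (log2 fold change -0.61, standard error 0.0775, edgeR adjusted p = 0.000604). The ratio of the summed 4E-BPs to Eif4e, per length, was 3.14, 3.56, 3.19 and 3.46 in WT and 10.9, 11.1, 9.79 and 9.52 in TAZG197V. This is a ratio of transcripts and does not give the amount or the phosphorylation of the proteins.

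Next, other genes of the pathway were read from lists of 68 genes, of which 67 were tested. Of these, 25 were called higher and 9 lower, or 50.7%, against the background of 33.5%. Here and for each list below, that background includes genes under the minimum mean count, which could not be called. It therefore understates the share among genes that could be called. Without TAZG197V 1 the number called was 22. Of the 34 genes called with all libraries, 17 were called the same way in each of the 17 alternative fits, 13 higher and 4 lower, and 27 of the 67 had no overlap between the genotypes, which held for 33.2% of all genes. The median log2 fold change was 0.17. All pathway changes were smaller in size than those of Sesn2, Deptor and Eif4ebp1.

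**Figure D4:**
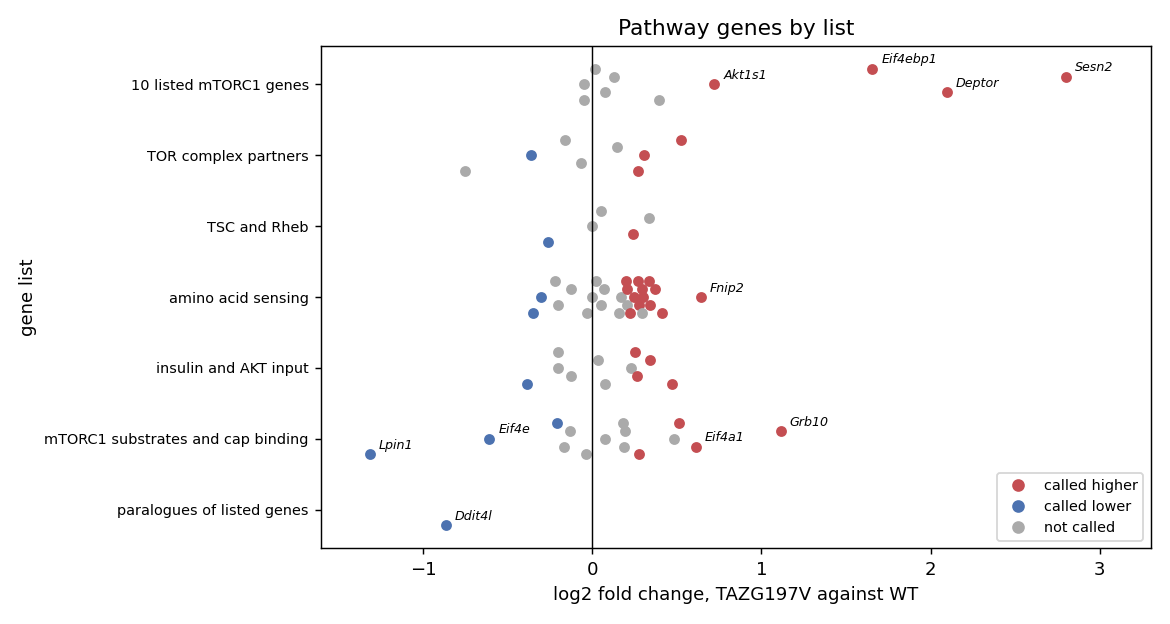
Log2 fold change of TAZG197V against WT for the tested genes of each list, 1 point per gene, with called genes in red (higher) or blue (lower). Sesn2, Deptor and Eif4ebp1 lie beyond the pathway genes, of which Lpin1 at -1.32 and Grb10 at 1.11 are farthest from 0.

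Of 15 mTORC1 substrates and cap-binding genes, 4 were called higher and 3 lower (46.7%, background 33.5%). Grb10, an adaptor that mTORC1 stabilises and that dampens insulin signalling, rose from 80.0 to 107.5 CPM in WT to 180.8 to 227.5 CPM in TAZG197V (log2 fold change 1.11, edgeR adjusted p = 2.38e-05). Lpin1, a phosphatidate phosphatase and transcriptional co-regulator that mTORC1 phosphorylates, changed from 219 to 312.1 CPM to 100.0 to 110.1 CPM (-1.32, edgeR adjusted p = 9.43e-06). Neither gene overlapped between the genotypes. Eif4b and Eif4a1, a cofactor and the helicase of the eIF4F complex, rose by 0.52 and 0.61 on the log2 scale (edgeR adjusted p = 0.000309 and 0.000136). Of the windows of Eif4a1, 28.4% occur in another gene, so its level is uncertain. The same holds for Rps6, at 43.8% of windows, which had a mean scaled count of only 15.8. Eef2k (0.28) and Tfeb (-0.21) were called here but in 4 and 7 of the 17 alternatives. The S6 kinase gene Rps6kb1 was at 0.19 (edgeR adjusted p = 0.0183), short of the 15% minimum, and was not called.

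Amino acid sensing genes, 27 in number, had 13 called higher and 2 lower (55.6% against 33.5%), with a median log2 fold change of 0.20. The Rag GTPase genes Rraga and Rragc rose by 0.34 and 0.28, and the Ragulator subunits Lamtor2, Lamtor3 and Lamtor4, which anchor them on the lysosome, by 0.41, 0.30 and 0.37. Of these 5 genes all but Lamtor4 were called in each of the 17 alternatives, and Lamtor4 was called in 15. The other Ragulator subunits, Lamtor1 (0.25) and Lamtor5 (0.27), were also called higher, but in 12 and 7 of the 17, and 25.6% and 14.5% of their 50-base windows occur in another gene. Fnip2, a partner of folliculin, rose by 0.64 (edgeR adjusted p = 0.0197) but was called in 9 of the 17. The genes called lower were Castor2 (-0.35), a paralogue of the arginine sensor, and Rragd (-0.30), called in 14 and 7 of the 17. Of the GATOR2 genes, to whose products sestrins bind, Mios, Seh1l and Sec13 were called higher (0.22, 0.20 and 0.29), in 8, 12 and 17 of the 17 alternatives, while Wdr24 and Wdr59 were not (0.05 and 0.16).

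Upstream of mTORC1, the list of 5 TSC and Rheb genes had 2 called (40%, background 33.5%). Rheb was called higher (0.24) and Tsc1 lower (-0.26), in 9 and 12 of the 17 alternatives, while Tsc2, the GTPase-activating subunit, was at -0.003 (edgeR adjusted p = 0.979). Of 11 genes of the insulin and AKT input, 4 were called higher, where 18.5% of all genes were. Igf1r rose by 0.47 (edgeR adjusted p = 0.00205) and Pdpk1, which encodes the kinase that activates AKT, by 0.34. Insr and Akt1 rose by 0.26 and 0.27, and were called in 17 and 15 of the 17 alternatives. Of the 8 genes for other TOR complex partners and assembly factors, Telo2 (0.52), Mapkap1 (0.31) and Tti2 (0.27) were called higher and Tti1 (-0.36) lower (50% called, background 33.5%), and of these Tti2 was called in 9 of the 17 alternatives and the others in all 17. Mlst8 and Rictor, which encode subunits of the TOR complexes, were at 0.15 and -0.07 and were not called.

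Transcription factors known to act on Ddit4 or the sestrins were read as well. Of 9 genes, 6 were called higher and 1 lower (77.8% called, background 33.5%). Atf4 rose from 51.6 to 70.5 CPM in WT to 282.7 to 371.9 CPM in TAZG197V (log2 fold change 2.50, edgeR adjusted p = 1.54e-07), and Ddit3 and Cebpb rose by 2.36 and 1.24. The lower one was Nr3c1, the glucocorticoid receptor (-0.28), while Trp53 was at 0.13 and not called. Of 12 ATF4 targets 11 were called higher and 1 lower, against 18.5% higher and 15.1% lower over all genes. The largest changes among them were those of Mthfd2 (6.46), Asns (6.11) and Slc7a11 (6.08), and the lower one was Vldlr (-0.50). Of 8 p53 targets 6 were called higher and 1 lower, against the same shares. Cdkn1a was at 2.34, Trp53inp1 at 1.64 and Eda2r at 1.42. The lower one was Ccng1 (-0.51), and Zmat3 (0.14) was not called. Several of these genes have more than one regulator.

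The genes whose profile over the 8 libraries was closest to that of Sesn2, by Euclidean distance between log2 CPM values standardised per gene, were Gpi1 (0.190), Polr3c (0.220), Slc19a2 (0.228), Trim66 (0.230) and Pck2 (0.237). Their log2 fold changes were 0.57, 0.69, 1.86, 4.06 and 2.35. Standardising removes the size of the change, so these genes are close to Sesn2 in the shape of the profile and not in fold change. The gap between the genotypes makes up most of that shape, and the order of libraries within a genotype was not compared.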

How the data were processed

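Heart RNA of 4 WT and 4 TAZG197V mice was sequenced as 50-base single-end reads. The authors converted base calls with bcl2fastq 2.20.0, aligned reads to mm10 with STAR 2.7.3a and counted reads over exons with featureCounts (Subread 2.0.0). The deposited values are raw whole-number counts per Ensembl gene. Strand and multi-mapping settings are not given in the sources used here. The 92 spike-in rows held 0 counts and were left out. Symbols, positions and exon lengths came from GENCODE M21 (GRCm38). Members and lists were chosen with earlier results of these data known.

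Genes were kept by filterByExpr in edgeR 4.0.16 (R 4.3.3) and scaled by TMM. The quasi-likelihood F-test was applied to genotype, with 2 surrogate variables from svaseq (sva 3.50.0, seed 1) and Benjamini-Hochberg adjustment over 15084 genes. The standard error was taken as the log2 fold change over the square root of F. CPM used the TMM-scaled library sizes, and log2 CPM a prior count of 2. Named beyond the 10 genes are up to 3 called genes per list with the largest change, plus genes that a small count or a comparison with the 10 makes necessary, chosen after their values were seen. The motifs were chosen with results known, and CCAAT after the windows were seen.

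Alternatives were DESeq2 1.42.0, other covariates, scalings, filters and cut-offs, and omission of libraries. The procedure was tested on simulated counts. Replicates of a genotype differed by a chi-square of at least 10.2 per gene, so none was a repeat. Libraries with the same number in their titles were compared as possible pairs. Labels do not say that mice shared a litter. Lanes were read from the deposited names. Counts carry no molecular identifiers. 1 pathway gene is not reported here.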

Additional observations from a re-analysis of the deposited data

How the results depend on the processing

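The 10 mTORC1 genes gave 4 calls in the main fit and in each of 19 alternatives. Under a stricter fold minimum of 1.5, 1843 genes over all and 6 of the 34 pathway genes were called, since fewer can pass. With 1 library left out, 22 to 35 pathway genes were called, the lowest without TAZG197V 1, and 3675 to 4816 genes over all. Without division by exon length the share of Eif4ebp1 in the 4E-BPs was 28.7% in WT and 55.2% in TAZG197V, that of Eif4ebp2 71.3% and 44.7%, that of Sesn1 in the sestrins 81.2% and 73.2%, and that of Sesn3 16.8% and 14.5%. The share of Sesn2 in WT was 2.02%. These differ because the transcripts differ in length.

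Correlations of deviations from the genotype means for libraries of the same number were 0.354, 0.0672, 0.342 and 0.457 for numbers 1 to 4. As number 2 was under 0.1, the numbers were not treated as pairs. With the replicate block in place of surrogate variables 4 of the 10 genes, 29 pathway genes and 4272 genes over all were called. Among the genes not called, the sign of the fitted change of Sesn1, Eif4ebp2, Mtor and Rptor flipped in some alternatives. No value of the 20 sets of 4 libraries stood apart by Dixon's test, which by chance marks about 1 in 20.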

Other observations

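Ddit4 is also known as a target of the glucocorticoid receptor, of hypoxia-inducible factor and of FOXO factors, so short lists of other targets of these were read. Of 7 glucocorticoid targets, Mt2 (log2 fold change 2.26) and Sgk1 (0.53) were called higher and 0 lower, or 28.6% against 33.5% of all genes. Mt2 shares 45.8% of its 50-base windows with another gene. Fkbp5 had 17.8 to 32.1 CPM in WT and 19.5 to 64.5 CPM in TAZG197V (0.78, edgeR adjusted p = 0.0596), and Per1, which also follows the daily clock, had 9.79 to 55.2 and 29.2 to 55.3 CPM (0.47, edgeR adjusted p = 0.386). In WT, library 1 was highest and library 3 lowest in Ddit4, Fkbp5, Per1 and Klf9, but not in Tsc22d3, Zbtb16, Sgk1 or Mt2. In TAZG197V, library 3 was highest in Ddit4 and lowest in Fkbp5. Whether Ddit4 varies together with these genes was not tested. Time of day at collection is not given in the sources used here. The paper calls mouse hearts unstarved where it discusses AMPK protein, but gives no feeding state for the sequenced mice.

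Of 8 hypoxia targets, Slc2a1 (0.88) was called higher, and Egln3 (-1.07) and Egln1 (-0.53) were called lower, or 37.5% against the background of 33.5%. Egln3 overlapped between the genotypes (49.4 to 137.3 CPM in WT, 39.9 to 57.5 CPM in TAZG197V), and over the 17 alternatives its log2 fold change ran from -1.30 to -0.62, with a call in 15. Of 7 FOXO targets, Gadd45a (1.43) was called higher and 0 were called lower, which is 14.3% against the background of 33.5%.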
